A study of Mus musculus with 12 samples.

Results

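The levels of 10 genes that respond to p53 and DNA damage were examined in lung macrophages of mice given saline or bleomycin. The genes were Cdkn1a, Mdm2, Ccng1, Bax, Bbc3, Phlda3, Trp53inp1, Zmat3, Sesn2 and Gdf15. They were chosen by symbol, and each symbol matched 1 of the 52636 genes of the count table. All 10 passed the filter on low counts. In 3 comparisons between groups, 0 of the 10 passed edgeR's quasi-likelihood test at a Benjamini-Hochberg adjusted p under 0.05, and the same held with DESeq2 and limma-voom. Among the libraries other than saline WT 2, which was very shallow, 1 library of bleomycin-treated mice, bleomycin WT 4, held the highest level of 4 of the 10 genes and the lowest of 4.

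The samples were bulk RNA libraries of Cx3cr1+ macrophages, cells carrying the fractalkine receptor Cx3cr1, from lung. There were 4 libraries of saline-treated mice labelled IL4Ra WT (saline WT), 4 of bleomycin-treated mice labelled IL4Ra WT (bleomycin WT) and 4 of bleomycin-treated mice labelled IL4Ra KO (bleomycin KO). IL4Ra is the receptor chain through which IL-4 and IL-13 signal. The labels do not say which cells carry the deletion, how it was made, the age of the mice, the dose of bleomycin or the time after it. Nor do they tie libraries to separate animals, so the spread behind each p-value may be partly technical.

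Bleomycin breaks DNA strands, and in the lung it injures the epithelium and leads to fibrosis. Broken DNA activates the kinases ATM and ATR and their partners CHK2 and CHK1, which stabilise the transcription factor p53. p53 then binds paired copies of a short recognition sequence, the half-site, near its target genes and raises genes that halt the cell cycle, repair damage, limit growth or trigger apoptosis, and it also raises Mdm2, whose protein marks p53 for destruction. Gdf15 and Sesn2 are in addition raised by the integrated stress response through ATF4, so their levels do not report p53 alone.

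The bases just before the annotated starts of the genes differ in how closely they match the p53 recognition sequence. RefSeq promoter windows (GRCm38.p6) were found for 8 of the 10 genes, all but Trp53inp1 and Zmat3, and the 250 bases before the start were searched on both strands. The search used the p53 half-site consensus, 10 letters with no mismatch, and the 20-letter site made of a pair of half-sites with no spacer and at most 3 mismatches. A 20-letter match can contain an exact half-site but need not, so the classes overlap in part. Cdkn1a and Ccng1 were in the closest class, a 20-letter match with 1 mismatch, which 25 of all 32851 windows held (0.0761%). The windows of these genes are shown because they hold the closest matches, and that of Mdm2 because it is the gene set apart in the KO libraries below. Capitals mark the matches, and each sequence reads 5′ to 3′ on the strand of its gene.

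Cdkn1a, chr17:29090729-29090978, plus strand: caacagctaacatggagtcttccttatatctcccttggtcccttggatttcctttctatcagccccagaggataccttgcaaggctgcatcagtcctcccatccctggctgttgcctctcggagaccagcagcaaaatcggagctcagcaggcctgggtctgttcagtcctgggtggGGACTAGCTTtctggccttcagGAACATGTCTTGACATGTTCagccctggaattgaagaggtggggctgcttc
Ccng1, chr11:40755287-40755536, minus strand: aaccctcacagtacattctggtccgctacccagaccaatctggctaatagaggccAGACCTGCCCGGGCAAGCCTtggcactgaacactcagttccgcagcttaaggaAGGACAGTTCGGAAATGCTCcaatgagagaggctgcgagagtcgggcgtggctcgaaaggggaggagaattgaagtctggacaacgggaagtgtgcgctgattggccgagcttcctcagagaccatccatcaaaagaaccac
Mdm2, chr10:117710759-117711008, minus strand: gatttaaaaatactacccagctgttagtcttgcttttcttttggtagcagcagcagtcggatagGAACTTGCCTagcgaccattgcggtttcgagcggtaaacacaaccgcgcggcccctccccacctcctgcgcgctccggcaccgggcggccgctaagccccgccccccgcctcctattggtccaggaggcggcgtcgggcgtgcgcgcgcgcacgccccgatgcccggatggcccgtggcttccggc

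In Cdkn1a the 20-letter match lay 51 to 32 bases before the more upstream annotated start, and a separate half-site lay 73 to 64 bases before it. The window of the downstream start of Cdkn1a, chr17:29093519-29093768, held no match. In Ccng1 the 1-mismatch site lay 195 to 176 bases before the start, and a 3-mismatch site lay 142 to 123 bases before it. The window of Mdm2 held only a half-site, 186 to 177 bases before the start. Bax and Bbc3 each held 1 20-letter match with 3 mismatches, shown here for comparison with the closer sites.

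Bax, 211 to 192 bases before the start: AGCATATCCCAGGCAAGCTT
Bbc3, 97 to 78 bases before the start: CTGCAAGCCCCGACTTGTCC

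The windows of Phlda3, Sesn2 and Gdf15 held no match. The 8 genes had 12 windows, since some have more than 1 annotated start. A half-site was found in 4 of these 12 windows and in 7.13% of all windows. A 20-letter match with up to 3 mismatches was likewise found in 4 of the 12 and in 5.32% of all windows. These matches are descriptions of letters in a short window, and no binding was measured here. Sequence outside the windows was not searched, so a gene without a close match here may hold one elsewhere.

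**Figure D1:**
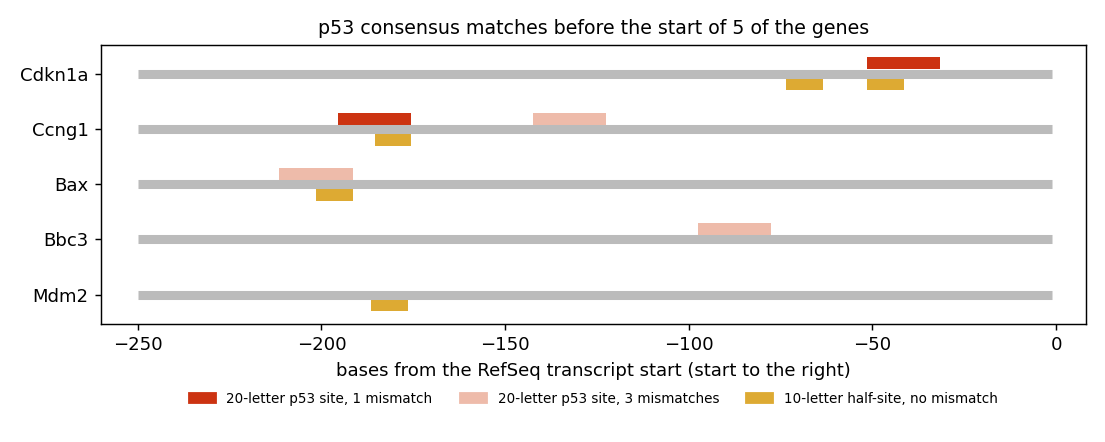
Map of the p53 consensus matches in the 250 bases before a RefSeq start of Cdkn1a, Ccng1, Bax, Bbc3 and Mdm2, with distance from that start in bases on the x axis and 1 gene per line. Dark red boxes are 20-letter matches with 1 mismatch, pale boxes those with 3 mismatches and yellow boxes exact half-sites; the dark boxes are in Cdkn1a and Ccng1 only.

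The libraries differed in ways that bear on every value below. Total counts were 60598 to 10168525 in saline WT, 9600870 to 18051113 in bleomycin WT and 8514384 to 16842991 in bleomycin KO. Saline WT 2 was the library with 60598 counts and had counts for 4830 genes. In it 1 count was worth 10.8 CPM, the unit used here for counts after TMM scaling of the library size, so that a gene at 0 could stand at up to 32.4 CPM, the value of 3 counts. Bleomycin WT 4 was sequenced to 9756454 counts but stood apart in its composition: its TMM factor was 0.579, and its highest Spearman correlation across genes with any other library was 0.730, against 0.939 to 0.986 for the other 7 bleomycin libraries. It had counts for 17835 genes, against 23103 to 30283 in bleomycin WT 1 to 3 and 18741 to 27082 in bleomycin KO. Comparisons are therefore given with all 12 libraries and with 10, leaving out saline WT 2 and bleomycin WT 4. Saline WT 1 was kept in the 10, although its highest correlation, 0.658, was lower than that of bleomycin WT 4. For saline WT 3 and 4 the highest correlations were 0.900 and 0.865. Il4ra counts were not lower in the KO libraries (235 to 473 CPM) than in bleomycin WT (138 to 626 CPM). They are summed over the whole gene, including any part outside a deletion, and KO denotes the label. The 12 macrophage markers summed to 16398 to 37397 CPM in saline WT, to 34169 to 55081 in bleomycin WT and to 51943 to 71964 in bleomycin KO. Only Mertk in saline WT 2 was at 0 among them. Neutrophil markers summed to 2709.6 to 31026 CPM in saline WT, to 623 to 1707 in bleomycin WT and to 1251 to 2046 in bleomycin KO. Lung epithelium markers summed to 1585 to 2436, 345 to 1005 and 269 to 759 CPM in the same order. The part of these markers in the differences below was not tested. In bulk samples fewer cells of a type and less RNA per cell cannot be told apart.

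Cdkn1a (ENSMUSG00000023067, chr17:29090979-29100722), which encodes the cyclin-dependent kinase inhibitor p21 and is the p53 target that halts the cell cycle, was abundant in every group. It stood at 811, 249, 873 and 770 CPM in saline WT 1 to 4. In bleomycin WT 1 to 4 it stood at 661, 932, 463 and 730 CPM, and in bleomycin KO 1 to 4 at 769, 778, 646 and 734 CPM. The groups overlapped throughout, and the lowest value was the 23 counts of saline WT 2. Without saline WT 2 and bleomycin WT 4 the means were 818 ± 52.0 CPM for saline WT and 685 ± 236 CPM for bleomycin WT (SD, n = 3 each), beside 732 ± 60.2 CPM (SD, n = 4) in bleomycin KO. Reads of Cdkn1a and of AC167363.2, which overlaps it on the other strand, cannot be told apart because the kit does not mark strand.

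Mdm2 (ENSMUSG00000020184, chr10:117688875-117710758) encodes the ubiquitin ligase that degrades p53, and Ccng1 (ENSMUSG00000020326, chr11:40748552-40755311) encodes cyclin G1, a p53 target that acts on p53 through Mdm2. Mdm2 stood at 160, 10.8, 260 and 199 CPM in saline WT 1 to 4. It stood at 220, 206, 204 and 943 CPM in bleomycin WT 1 to 4 and at 261, 367, 267 and 331 CPM in bleomycin KO 1 to 4. All 4 KO libraries lay above all 4 saline WT libraries, although the lowest KO value and the highest saline WT value were 261 and 260 CPM. The KO libraries also lay above bleomycin WT 1 to 3 and below bleomycin WT 4.

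Ccng1 stood at 134, 0, 175 and 92.4 CPM in saline WT 1 to 4, at 157, 158, 148 and 189 CPM in bleomycin WT, and at 159, 221, 171 and 171 CPM in bleomycin KO. Apart from saline WT 2, whose 0 allows up to 32.4 CPM, the 3 groups covered nearby ranges, and the saline WT range spanned that of bleomycin WT 1 to 3.

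Bax (ENSMUSG00000003873, chr7:45461697-45466898) and Bbc3 (ENSMUSG00000002083, chr7:16309616-16318205) encode pro-apoptotic proteins of the BCL-2 family. BAX opens the outer membrane of the mitochondrion, and PUMA, the product of Bbc3, frees it to do so. Bax stood at 128, 86.5, 103 and 103 CPM in saline WT 1 to 4, at 123, 113, 144 and 299 CPM in bleomycin WT, and at 112, 141, 151 and 153 CPM in bleomycin KO. The groups overlapped, and bleomycin WT 4 held the highest value. Gm45808 overlaps Bax on the same strand, and the labels do not say how reads of overlapping genes were counted.

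Bbc3 was low everywhere. It stood at 23.1, 0, 8.92 and 9.85 CPM in saline WT 1 to 4, at 7.69, 6.12, 5.11 and 1.07 CPM in bleomycin WT, and at 4.90, 7.32, 5.18 and 6.49 CPM in bleomycin KO. Saline WT 1, 3 and 4 all lay above all 8 bleomycin libraries, and saline WT 2 is too shallow to place at this level.

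Phlda3 (ENSMUSG00000041801, chr1:135766119-135769136) encodes a small lipid-binding protein that restrains the survival kinase AKT. It stood at 58.6, 0, 48.4 and 23.8 CPM in saline WT 1 to 4, at 30.0, 26.3, 20.04 and 209 CPM in bleomycin WT, and at 22.4, 29.7, 44.8 and 47.2 CPM in bleomycin KO. Its groups overlapped, with bleomycin WT 4 far above the rest.

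Trp53inp1 (ENSMUSG00000028211, chr4:11156431-11174379) encodes a stress-induced nuclear protein that promotes p53 activity. It stood at 69.3, 0, 94.0 and 74.7 CPM in saline WT 1 to 4, at 58.1, 50.0, 58.2 and 25.6 CPM in bleomycin WT, and at 58.7, 78.5, 58.3 and 79.9 CPM in bleomycin KO. Every bleomycin WT library lay below every KO library, but the nearest values were 58.2 and 58.3 CPM.

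Zmat3 (ENSMUSG00000027663, chr3:32334792-32365678), a zinc finger RNA-binding protein raised by p53, had few counts. It stood at 11.7, 54.0, 7.38 and 6.81 CPM in saline WT 1 to 4, at 5.69, 7.54, 3.73 and 1.42 CPM in bleomycin WT, and at 5.09, 2.31, 3.48 and 12.4 CPM in bleomycin KO. The highest value, in saline WT 2, was made of 5 counts, and the other libraries overlapped between groups.

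Sesn2 (ENSMUSG00000028893, chr4:132492032-132510501) encodes sestrin 2, a leucine-binding stress protein that restrains the growth kinase mTORC1. It stood at 54.7, 0, 130 and 80.8 CPM in saline WT 1 to 4, at 33.0, 75.1, 22.0 and 1.24 CPM in bleomycin WT, and at 51.2, 47.7, 32.3 and 18.3 CPM in bleomycin KO. Saline WT 1, 3 and 4 lay above all 4 KO libraries and overlapped bleomycin WT only through bleomycin WT 2. Sesn2 shares 6089 bases of its span with Gm12981, so its counts can depend on how overlapping genes were counted.

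Gdf15 (ENSMUSG00000038508, chr8:70629393-70632456) encodes a secreted stress hormone of the TGF-beta superfamily and is the only secreted product among the 10. It stood at 273, 43.2, 190 and 277 CPM in saline WT 1 to 4, at 463, 325, 222 and 1739 CPM in bleomycin WT, and at 386, 362, 267 and 423 CPM in bleomycin KO. Saline WT 1, 3 and 4 overlapped both bleomycin groups, the 4 counts of saline WT 2 gave the lowest level, and bleomycin WT 4 stood far above the next library.

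**Figure D2:**
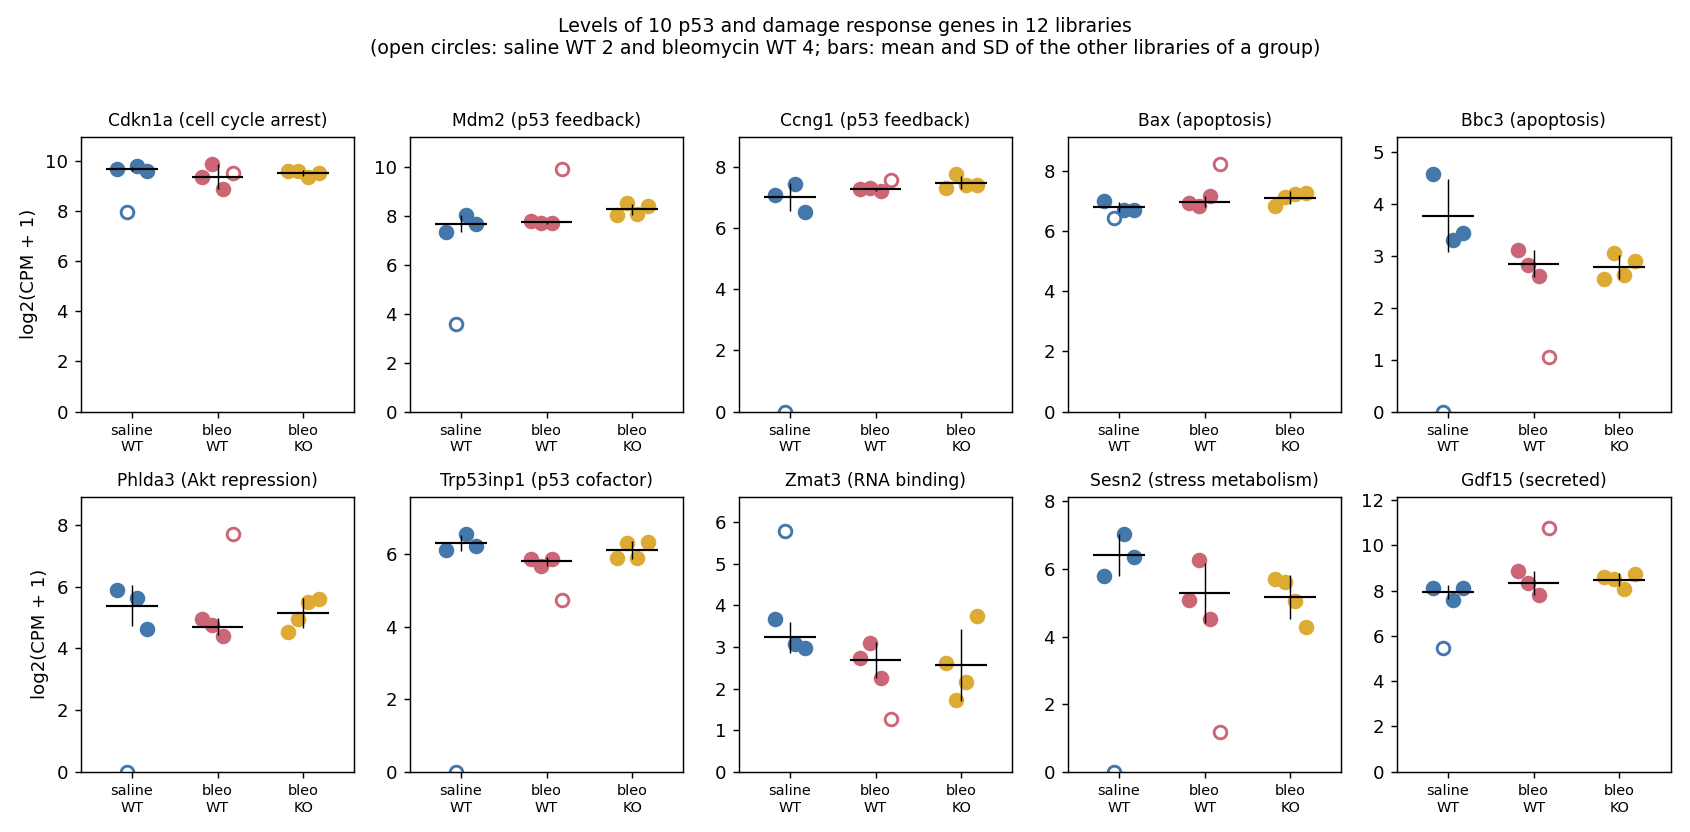
Level of each of the 10 genes as log2(CPM + 1) on the y axis in saline WT, bleomycin WT and bleomycin KO (x axis), with 1 point per library; open circles are saline WT 2 and bleomycin WT 4, and the bar and line are the mean and SD of the remaining libraries of a group. Filled points of the groups overlap for most genes, while the open circles hold most of the extremes: saline WT 2 is at 0 for 5 genes and bleomycin WT 4 is the highest bleomycin library for Mdm2, Bax, Phlda3 and Gdf15.

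Levels of different genes were compared per kilobase of exonic length, in the 10 libraries. Cdkn1a was the highest of the 10 in every group, at 368 ± 23.4 CPM per kilobase (SD, n = 3) in saline WT, 308 ± 106 (SD, n = 3) in bleomycin WT and 329 ± 27.1 (SD, n = 4) in bleomycin KO. Gdf15, Bax, Mdm2, Ccng1 and Phlda3 followed in that order in all 3 groups, with KO means of 194, 161, 97.5, 51.4 and 25.1 CPM per kilobase. Gdf15 and Bax did not differ beyond their spread: the KO libraries ran from 144 to 228 for Gdf15 and from 130 to 177 CPM per kilobase for Bax. Sesn2 and Trp53inp1 exchanged places, with saline WT means of 25.5 ± 11.1 and 14.7 ± 2.40 and KO means of 10.8 ± 4.34 and 12.7 ± 2.22 CPM per kilobase in that order. Bbc3 and Zmat3 were the lowest in every group, at KO means of 3.29 ± 0.625 and 0.747 ± 0.583 CPM per kilobase.

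Bleomycin WT was first compared with saline WT, the comparison that asks whether macrophages of injured lungs held a raised p53 response. Over all 12 libraries Gdf15 showed the largest difference, 687 ± 708 against 196 ± 109 CPM (SD, n = 4 each), and Mdm2, Bax, Phlda3 and Ccng1 also had higher means. Cdkn1a was at 696 ± 194 against 676 ± 288 CPM (SD, n = 4 each), and its log2 fold change, 0.03, turned negative with DESeq2 and with RLE size factors. Bbc3, Zmat3, Sesn2 and Trp53inp1 had lower means. The fold for Gdf15 was 3.42 (95% interval 1.33 to 8.79), with an unadjusted p of 0.0139 and an adjusted p of 0.254 in edgeR's quasi-likelihood test. None of these genes passed: 0 of 10 were called, against 0.0240% of the 16679 genes tested, and 1 of 10 had an unadjusted p under 0.05, against 14.7%. No gene of the 10 separated the groups, whereas 4.93% of genes lay wholly higher and 0.929% wholly lower. Ccng1, Bbc3, Phlda3, Trp53inp1 and Sesn2 were at 0 in saline WT 2 and so could not lie wholly lower in bleomycin WT. The same held for every gene at 0 in that library. The median log2 fold change of the 10 was 0.33, against 0.08 over all genes tested, and it was -0.27 with limma-voom and sample quality weights.

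Without saline WT 2 and bleomycin WT 4, the means of Gdf15, Mdm2, Bax and Ccng1 were still higher in bleomycin WT but by less, and those of Phlda3 and Cdkn1a were lower. The log2 fold change became 0.42 for Gdf15 (95% interval -0.22 to 1.07), 0.00 for Mdm2 (-0.48 to 0.49), 0.16 for Bax (-0.32 to 0.64) and 0.18 for Ccng1 (-0.37 to 0.73). That of Phlda3 turned from 0.98 to -0.81 (-1.75 to 0.14). For Cdkn1a it was -0.28 (-0.79 to 0.23), and the upper bound of its ratio was 1.17. The upper bound was 1.41 for Mdm2, 1.56 for Bax and 2.10 for Gdf15. The median over the 10 genes was -0.41, while the median over all genes also lay below 0, at -0.14.

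Bbc3 and Trp53inp1 had separate groups in these 10 libraries, though neither passed. The apoptosis gene Bbc3 was at 6.31 ± 1.30 against 14.0 ± 7.94 CPM (SD, n = 3 each), and its log2 fold change was -1.18 (95% interval -2.40 to 0.04, adjusted p 0.368 in edgeR). The p53 cofactor Trp53inp1 was at 55.5 ± 4.68 against 79.4 ± 12.98 CPM (SD, n = 3 each), for a log2 fold change of -0.54 (95% interval -1.08 to 0.00, adjusted p 0.356). For both genes all 3 bleomycin WT libraries lay below all 3 saline WT libraries, as did 9.43% of the 18812 genes tested, while 11.2% lay wholly higher and 0 of the 10 did. Sesn2 was at 43.4 ± 28.1 against 88.6 ± 38.4 CPM (SD, n = 3 each), with overlapping libraries. The test called 0 of the 10 and 0.431% of all genes. An unadjusted p under 0.05 was reached by 0 of the 10 and by 14.0% of all genes.

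Bleomycin KO was then compared with bleomycin WT, both under injury, to ask whether the receptor label went with a different damage response. With all 12 libraries the means of KO were lower for Gdf15, Phlda3, Mdm2 and Bax, the genes in which bleomycin WT 4 was highest. Trp53inp1 was the 1 gene whose groups did not overlap, at 68.8 ± 11.97 against 48.0 ± 15.4 CPM (SD, n = 4 each), and its log2 fold change was 0.52 (95% interval -0.82 to 1.86). Among all genes 0.905% lay wholly higher and 0.594% wholly lower. edgeR's test called 0 of the 10 and 0% of all genes, and 0 of the 10 had an unadjusted p under 0.05, against 3.88% of all genes. The median log2 fold change of the 10 was 0.11, against -0.01 over all genes.

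In the 10 libraries Mdm2 was the gene that stood out. Bleomycin KO held 307 ± 51.3 CPM (SD, n = 4), and bleomycin WT held 210 ± 8.45 CPM (SD, n = 3), a ratio of 1.47 (95% interval 1.07 to 2.02), and all 4 KO libraries lay above all 3 WT libraries. Its unadjusted p was 0.0222 and its adjusted p 1 in edgeR's test, so it did not pass. With bleomycin WT 4, which held 943 CPM, included, its log2 fold change was -0.36, so the sign rests on that library. Ccng1, whose protein also acts on p53 through Mdm2, was at 181 ± 27.6 CPM (SD, n = 4) against 154 ± 5.15 CPM (SD, n = 3), again with no overlap, and its log2 fold change was 0.24 (95% interval -0.28 to 0.75). Trp53inp1 likewise lay wholly higher, at 68.8 ± 11.97 CPM (SD, n = 4) against 55.5 ± 4.68 CPM (SD, n = 3). These 3 of 10 compare with 1.37% of all genes wholly higher and 1.81% wholly lower. The margins were small for Ccng1, with nearest values of 159.4 and 157.6 CPM, and for Trp53inp1, with 58.26 and 58.19 CPM. With bleomycin WT 4 included, Mdm2 and Ccng1 overlapped and only Trp53inp1 lay wholly higher. The test called 0 of the 10 and 0% of all genes, and 1 of the 10 had an unadjusted p under 0.05, against 0.920% of all genes. The remaining 7 genes overlapped, and for Cdkn1a the interval of the ratio was 0.772 to 1.498.

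The last comparison set bleomycin KO against saline WT, groups that differ in both treatment and receptor label, so their effects cannot be told apart in it. It shares its saline libraries with the first comparison and its KO libraries with the second. Mdm2 was higher in KO, at 307 ± 51.3 against 158 ± 106 CPM (SD, n = 4 each) with all libraries and at 307 ± 51.3 CPM (SD, n = 4) against 206 ± 50.1 CPM (SD, n = 3) in the 10. The ratio in the 10 libraries was 1.47 (95% interval 1.07 to 2.03), with an adjusted p of 0.219 in edgeR. With all 12 libraries 0 of the 10 genes were called and 0.0180% of all genes were. Mdm2 was the only one of the 10 with no overlap, against 8.17% of all genes wholly higher and 1.04% wholly lower. Here too, a gene at 0 in saline WT 2 could not lie wholly lower. No gene of the 10 had an unadjusted p under 0.05, against 9.03% of all genes. The median of the 10 was 0.11, against 0.04 over all genes, and -0.08 with DESeq2.

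In the 10 libraries Bbc3 and Sesn2 were wholly lower in KO than in saline WT. Bbc3 was at 5.97 ± 1.13 CPM (SD, n = 4) against 14.0 ± 7.94 CPM (SD, n = 3), a log2 fold change of -1.25 (95% interval -2.37 to -0.13, adjusted p 0.258 in edgeR). Sesn2 was at 37.4 ± 15.1 CPM (SD, n = 4) against 88.6 ± 38.4 CPM (SD, n = 3), a log2 fold change of -1.26 (95% interval -2.32 to -0.19, adjusted p 0.231). Together with Mdm2 these were 3 of 10 with an unadjusted p under 0.05, against 16.8% of all genes. The shares of all genes without overlap were 8.38% wholly higher and 7.80% wholly lower. The test called 0 of the 10 and 0.643% of all genes. The median of the 10 was -0.20, against -0.15 over all genes.

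**Figure D3:**
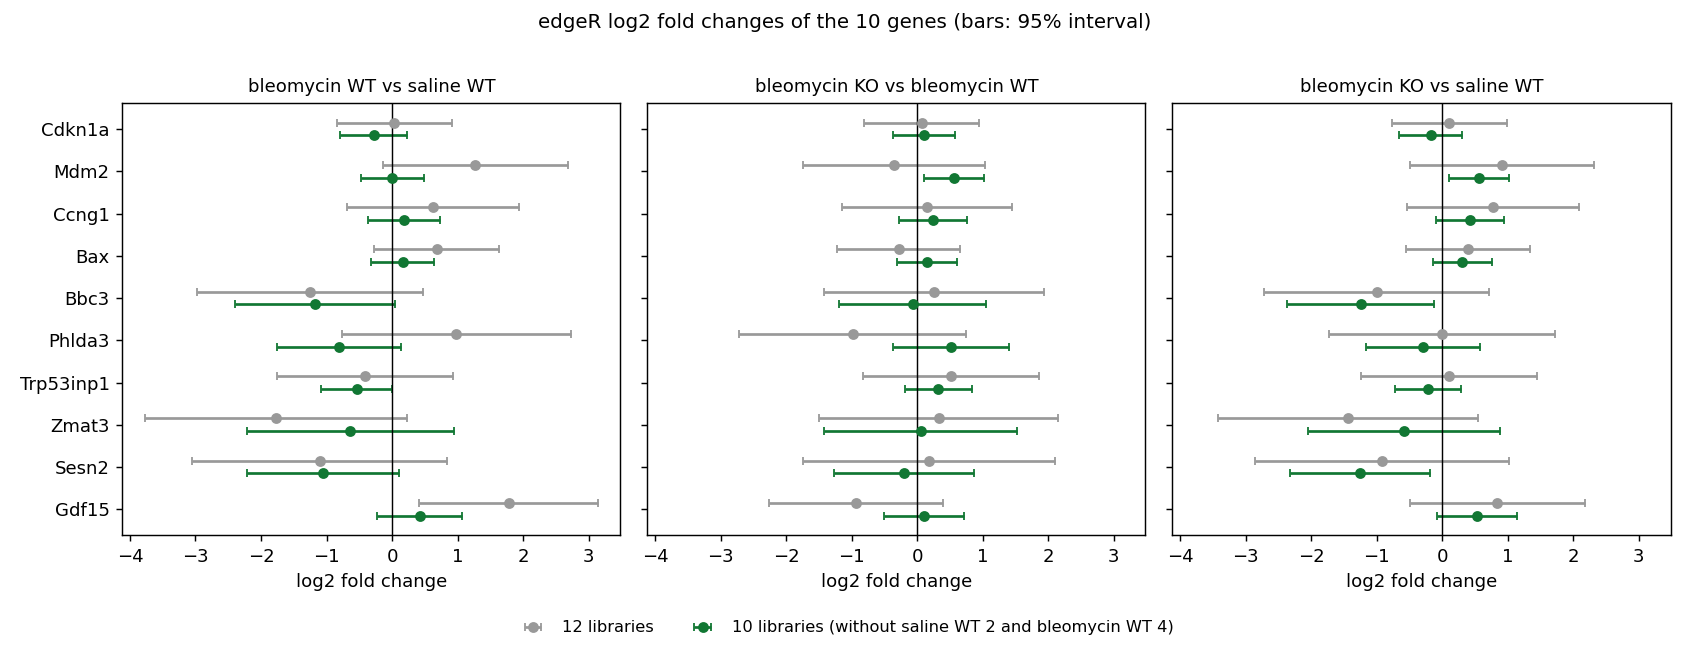
edgeR log2 fold change of each of the 10 genes (x axis) with its 95% interval, for the 3 comparisons, in 12 libraries (grey) and in the 10 left without saline WT 2 and bleomycin WT 4 (green). The green intervals are narrower, and those that exclude 0 are Mdm2 in both KO comparisons and Bbc3 and Sesn2 in bleomycin KO against saline WT, before adjustment over all genes.

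Bleomycin WT 4 carried a pattern of its own in these genes. It lay above all 7 other bleomycin libraries for Mdm2, Bax, Phlda3 and Gdf15 and below all 7 for Bbc3, Trp53inp1, Zmat3 and Sesn2, and inside their range for Cdkn1a and Ccng1. Relative to the mean of bleomycin WT 1 to 3 it was 8.21 times as high for Phlda3, 5.17 times for Gdf15, 4.49 times for Mdm2 and 2.36 times for Bax. Without the TMM scaling, which is large in this library, these ratios were 4.86, 3.04, 2.66 and 1.40. Cdkn1a, of the pathway's arrest branch, had a ratio of 1.06, or 0.639 without TMM. Bbc3, Sesn2 and Zmat3 rested on 6, 7 and 8 counts there, and Sesn2 had a ratio of 0.0287, or 0.0175 without TMM. Among the 11 libraries other than saline WT 2, bleomycin WT 4 was the highest for 4 of the 10 genes and the lowest for 4.

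Other genes of this library also departed from its group. Its macrophage markers summed to 34169 CPM, against 50502 to 55081 CPM in bleomycin WT 1 to 3, and its endothelium markers to 821 CPM, against 113 to 193 CPM, with Tek, Cldn5 and Emcn at 0 and Calcrl alone at 477 CPM. T and NK cell markers summed to 1142 CPM, against 391 to 621 CPM, and B and plasma cell markers to 1578 CPM, against 290 to 805 CPM. Lung epithelium markers were also above and neutrophil markers below those of bleomycin WT 1 to 3. The anti-apoptotic gene Bcl2l1 stood at 3541 CPM, against 74.3 to 146 CPM in bleomycin WT 1 to 3. Chek1, the checkpoint kinase gene, stood at 186 CPM, against 3.98 to 4.49 CPM in bleomycin WT 1 to 3. Of the 30 cell cycle genes, 5 were at 0 in it: Cdk1, Bub1, Plk1, Aurka and Cdc20. The whole list summed to 743 CPM there, against 1490 to 1934 CPM in bleomycin WT 1 to 3. Kif20a of the same list went the other way, at 124 CPM against 35.1 to 59.0 CPM. The part of this composition in its p53 genes was not tested.

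**Figure D4:**
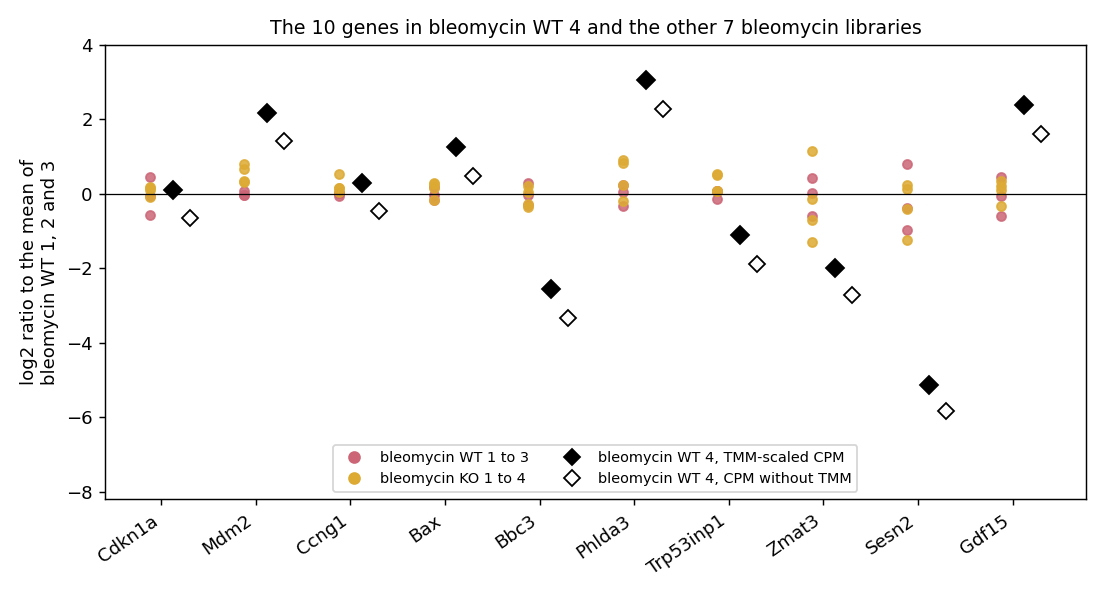
log2 ratio of each bleomycin library to the mean of bleomycin WT 1, 2 and 3 (y axis) for the 10 genes (x axis); dots are the other 7 bleomycin libraries and diamonds bleomycin WT 4, filled with TMM scaling and open without. The filled diamonds lie above all dots for Mdm2, Bax, Phlda3 and Gdf15 and below all dots for Bbc3, Trp53inp1, Zmat3 and Sesn2.

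The wider pathway was described by 7 lists of other genes. Among 40 other p53 targets, 38 were tested with all libraries, and 0 passed in bleomycin WT against saline WT. Their median log2 fold change was 0.08, the same as over all genes, with 22 above 0 and 16 below. Without those 2 libraries 40 were tested, 0 passed and the median was 0.03, against -0.14 over all genes. The all-gene medians of 0.08 and -0.14 are the values beside which the medians of the other lists in this comparison stand. Ercc5, a DNA repair nuclease, and Ccnk, a cyclin of transcription, had the smallest p with Ephx1, the microsomal epoxide hydrolase. The high means of Ercc5 and Ccnk came from bleomycin WT 4, at 472 and 40.9 CPM, since bleomycin WT 1 to 3 ran from 6.99 to 26.2 CPM for Ercc5 and from 0.893 to 5.07 CPM for Ccnk. Ephx1 was at 64.9 ± 6.76 against 157 ± 136 CPM (SD, n = 3 each; adjusted p 0.328 in edgeR) without saline WT 2 and bleomycin WT 4, with 313 CPM in saline WT 1. Pmaip1, which encodes the apoptosis inducer NOXA and was named after its values were seen, was at 260 ± 150 against 209 ± 79.9 CPM (SD, n = 4 each). Its direction turned in the 10 libraries, to 195 ± 89.98 against 243 ± 52.8 CPM (SD, n = 3 each).

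p53 itself and its regulators were also examined. Of 20 genes 19 were matched and 17 tested with all libraries; 0 passed in bleomycin WT against saline WT, and the median log2 fold change was -0.03. Trp53, the p53 gene, and Mdm4, an inhibitor of p53 related to Mdm2, were named after their values were seen. The saline WT level of Trp53 was 48.7 ± 31.1 CPM, that of bleomycin WT 59.6 ± 27.1 and that of bleomycin KO 80.1 ± 14.2 (SD, n = 4 each). Saline WT 2 held 1 count of it, and in the 10 libraries bleomycin WT was the lower of these, at 53.99 ± 30.3 against 61.3 ± 22.3 CPM in saline WT (SD, n = 3 each). Mdm4 was at 25.6 ± 5.67 in bleomycin WT against 44.7 ± 12.4 CPM in saline WT (SD, n = 3 each), and its adjusted p in edgeR was 0.319. Saline WT 1, 3 and 4 ran from 34.2 to 58.4 CPM and bleomycin WT 1 to 3 from 21.3 to 32.0 CPM, without overlap. In the same libraries 9.43% of all genes lay wholly lower in bleomycin WT. Bleomycin KO 1 to 4 held 33.7, 27.7, 44.9 and 27.8 CPM of Mdm4 and overlapped saline WT. By the naming rule the list also gave Trp53bp2, a p53-binding protein, at 34.4 ± 17.2 against 50.9 ± 18.1 CPM, Trp63, a relative of p53 typical of epithelial basal cells, at 1.79 ± 1.77 against 8.73 ± 7.06 CPM, and Rfwd2, a ubiquitin ligase of p53, at 3.52 ± 1.86 against 4.82 ± 3.61 CPM (SD, n = 3 each, bleomycin WT against saline WT in the 10 libraries).

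Damage sensors, kinases and genes of double-strand break repair gave 31 tested of 32, with 0 passing and a median log2 fold change of 0.25 in bleomycin WT against saline WT. Without the 2 libraries the median was 0.15 and 0 of 32 passed. Chek2, the kinase gene downstream of ATM, was among the 3 genes of this list with the smallest p with all libraries. It stood at 1.95, 0, 6.77 and 11.2 CPM in saline WT 1 to 4, at 15.5, 17.9, 22.4 and 6.58 CPM in bleomycin WT, and at 19.97, 16.9, 24.7 and 25.8 CPM in bleomycin KO. All 7 bleomycin libraries other than bleomycin WT 4 lay above saline WT 1, 3 and 4. Saline WT 2, whose 0 allows up to 32.4 CPM, is too shallow to place at this level. In the 10 libraries 11.2% of all genes lay wholly higher in bleomycin WT than in saline WT, and 8.38% in bleomycin KO. In the 10 libraries its log2 fold change was 1.46 (SE 0.54) in bleomycin WT and 1.71 (SE 0.52) in bleomycin KO against saline WT, with adjusted p of 0.274 and 0.158 in edgeR. Chek1 and Tdp2, which removes topoisomerase from DNA ends, had their highest values, 186 and 159 CPM, in bleomycin WT 4, and at 4.29 ± 0.273 against 12.02 ± 16.2 CPM and 20.5 ± 4.45 against 24.6 ± 17.5 CPM (SD, n = 3 each) their means in bleomycin WT lay below those of saline WT without it. For Chek1 that order rests on saline WT 1, at 30.6 CPM, since saline WT 3 and 4 were at 1.23 and 4.20 CPM, and for Tdp2 on saline WT 4, at 43.3 CPM, with saline WT 1 and 3 at 8.76 and 21.7 CPM. Atm, named after its values were seen, was at 10.1 ± 3.68 against 4.77 ± 3.66 CPM (SD, n = 4 each). That saline WT mean includes the 0 of saline WT 2, which allows up to 32.4 CPM. Saline WT 1, 3 and 4 were at 5.11, 8.92 and 5.07 CPM, and bleomycin WT 1 to 4 at 9.69, 15.1, 9.33 and 6.22 CPM. Bleomycin KO 1 to 4 were at 11.3, 0.198, 11.5 and 10.1 CPM.

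Other BCL-2 family genes, which share the apoptosis branch with Bax and Bbc3, had 11 of 14 tested genes above 0, against 52.9% of all genes, and a median of 0.74, against 0.08, in bleomycin WT against saline WT, and 0 passed. Without the 2 libraries 11 of 14 were again above 0, against 44.1%, and the median was 0.33, against -0.14. Bcl2l1 was at 964 ± 1718 against 80.0 ± 12.7 CPM (SD, n = 4 each), and at 106 ± 36.8 against 85.01 ± 9.53 CPM (SD, n = 3 each) in the 10. The pro-apoptotic gene Bcl2l11 was at 193 ± 74.9 against 147 ± 57.5 CPM (SD, n = 3 each) there. Mcl1, another protector from apoptosis, was at 1001 ± 230 against 624 ± 168 CPM (SD, n = 3 each; adjusted p 0.37 in edgeR).

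The integrated stress response, which also controls Gdf15 and Sesn2, had a median of -0.30 over 22 genes in all libraries, with 0 passing. In the 10 libraries it was -0.62 in bleomycin WT and -0.66 in bleomycin KO against saline WT, beside -0.14 and -0.15 over all genes. In each, 1 of 22 passed, Psat1 in both, against 0.431% and 0.643% of all genes. An unadjusted p under 0.05 in the lower direction was reached by 7 of 22 in bleomycin WT, against 7.56% of all genes, and by 6 of 22 in bleomycin KO, against 1967 of the 18812 genes tested. Psat1, an enzyme of serine synthesis, rose from 6.14 ± 2.48 CPM in saline WT to 29.6 ± 4.41 in bleomycin WT (SD, n = 3 each) and to 26.9 ± 2.61 in bleomycin KO (SD, n = 4). The log2 fold changes were 2.24 and 2.11, with adjusted p of 0.048 and 0.0456 in edgeR. With all 12 libraries its adjusted p was 0.239 and 0.339. Psat1 stood at 5.86 CPM in bleomycin WT 4, inside the saline WT range. Cebpb, a stress-responsive transcription factor gene, was at 523 ± 247 against 99.8 ± 41.0 CPM and Chac1, which degrades glutathione, at 2.32 ± 1.31 against 18.2 ± 25.2 CPM (SD, n = 3 each, bleomycin WT against saline WT in the 10 libraries). The contrast in Cebpb depends on leaving out saline WT 2, which held 519 CPM of it from 48 counts, inside the bleomycin WT range. Bleomycin KO 1 to 4 held 443, 277, 144 and 76.9 CPM of Cebpb, the last inside the range of saline WT 1, 3 and 4.

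Cell cycle genes, which p21 and p53 restrain, were examined beside Cdkn1a. In bleomycin WT against saline WT, of 30 genes 28 were above 0 in both fits, with a median log2 fold change of 1.01 with all libraries and 1.11 in the 10, although 0 passed in either. An unadjusted p under 0.05 in the higher direction was reached by 5 genes with all libraries, against 8.47% of all genes, and by 16 in the 10, against 6.49%. A log2 fold change above 0 was held by 52.9% and 44.1% of all genes. Mki67, the proliferation marker Ki-67, was at 79.9 ± 21.0 CPM in bleomycin WT against 19.8 ± 11.5 CPM in saline WT (SD, n = 3 each; adjusted p 0.0875 in edgeR). Kif20a, a mitotic kinesin gene, was at 48.3 ± 12.1 against 17.3 ± 7.39 CPM and Ccne1, cyclin E1, at 18.8 ± 4.77 against 1.28 ± 2.09 CPM (SD, n = 3 each). In bleomycin KO against bleomycin WT the list's median was 0.16 with all libraries and -0.13 in the 10.

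Senescence-associated genes had a median of 0.17 over 14 tested genes of 16 with all libraries and 0.03 over 15 in the 10, with 0 passing in bleomycin WT against saline WT. Cxcl1, a neutrophil chemokine, was at 543 ± 115 against 254 ± 65.5 CPM, Il6 at 75.5 ± 34.98 against 47.7 ± 36.003 CPM and Igfbp4, a binding protein of insulin-like growth factors, at 86.4 ± 12.8 against 185 ± 101 CPM (SD, n = 3 each), all without the 2 libraries. In bleomycin KO against bleomycin WT, 0 genes of the 7 lists passed in 12 or in 10 libraries. Beside these lists, the neutrophil marker S100a9 fell from 7075 ± 5455 to 440 ± 162 CPM (SD, n = 3 each, adjusted p 0.0407) and the T and innate lymphoid cell marker Il7r, which macrophages can also express, rose from 34.4 ± 4.62 to 129 ± 29.5 CPM (SD, n = 3 each, adjusted p 0.0169) in bleomycin WT. With all 12 libraries neither passed, at adjusted p of 0.101 for S100a9 and 0.162 for Il7r in edgeR's test. Sftpc of alveolar epithelium was at 157 ± 94.3 against 1147 ± 323 CPM (SD, n = 3 each, adjusted p 0.0983). The part of such cells in the values of the lists was not tested.

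**Figure D5:**
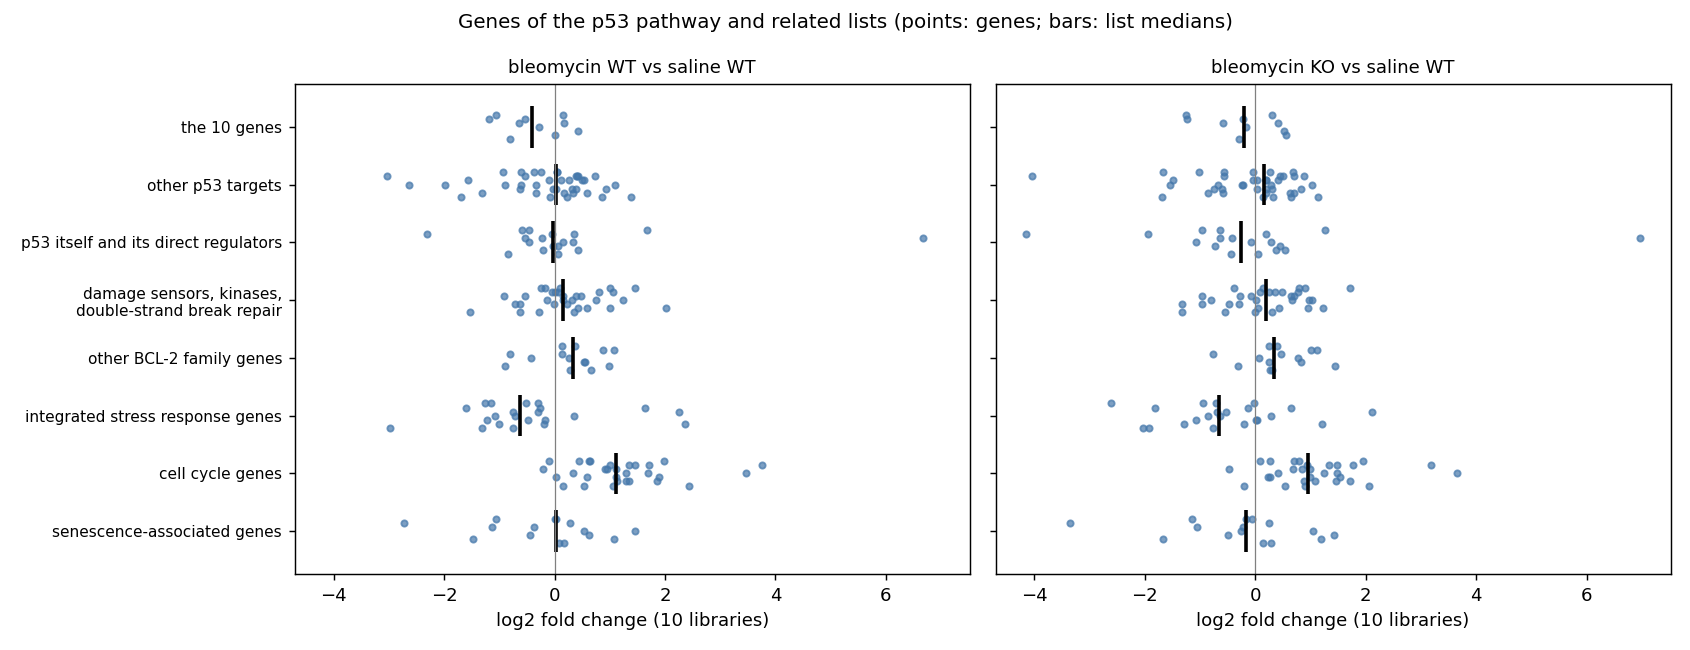
edgeR log2 fold change (x axis) of every tested gene of the 10 p53 genes and the 7 other lists in bleomycin WT and bleomycin KO against saline WT, in the 10 libraries; points are genes and vertical bars list medians. In bleomycin WT the 10 genes have a median of -0.41, with 6 of them below 0, and the other p53 targets one of 0.03, and the cell cycle genes are displaced to the right, with a median of 1.11.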

How the data were processed

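RNA of lung Cx3cr1+ macrophages was made into cDNA with the Smart-Seq v4 kit and sequenced as single-end reads, per the labels' protocols; the kit does not mark strand. The deposited table holds raw counts per gene made by the authors, with no normalization, and a second deposited table holds symbols, coordinates and exonic sizes. GSNAP, limma and Partek with GRCm38 and mm10 are listed, per the submitters' processing notes, without settings. Columns were matched to samples by their labels. Of 52636 genes, 11872 had 0 counts.

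edgeR 4.0.16 (R 4.3.3) was run on the counts of all 12 libraries in a single model of the 3 groups: filterByExpr by group, TMM scaling, robust quasi-likelihood fits and Benjamini-Hochberg adjustment over the 16679 genes tested, called at an adjusted p under 0.05. The same fit without saline WT 2 and bleomycin WT 4 tested 18812 genes. Intervals of 95% use the standard error of the log2 fold change and edgeR's total degrees of freedom. CPM of single libraries and group means are TMM-scaled over all 12 libraries. Alternatives used DESeq2 1.42.0, limma 3.58.1 (voom with sample quality weights), RLE size factors, no filter, the 2 groups alone, a replicate block and each library left out. Replicate pairs were compared by chi-square per degree of freedom (lowest 23.9), so none was counted as 1 sample. The fit was tested on simulated counts. The value of 3 counts is given as the limit that a 0 allows, for counting error only.

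The 10 genes and all other gene lists were chosen with earlier results of these data known. Named genes are the 10, the 3 of each list with the smallest p in bleomycin WT against saline WT, and the most abundant marker of each cell type, where a result touched it. Symbols absent from the count table were matched through 1 alias (Claspn), and Trp53rk was left unmatched. Promoter sequences are from RefSeq (GRCm38.p6), and gene positions on chromosomes from GENCODE.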

Additional observations from a re-analysis of the deposited data

Results flagged for a closer look

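In 30 groups of 4 libraries (10 genes in 3 groups), 6 held a library whose gap to its nearest neighbour exceeded the share of the group's range set by Dixon's 95% critical value. Chance flags about 1 in 20 such groups where values are normally distributed. The 10 genes share the same libraries, so their flags are not independent and that rate cannot be set against the 6. Bleomycin WT 4 was the high library in 4 of them, at 943 CPM for Mdm2, 299 CPM for Bax, 209 CPM for Phlda3 and 1739 CPM for Gdf15. Saline WT 2, the library with 60598 counts, was the low library for Cdkn1a at 249 CPM (23 counts) and the high library for Zmat3 at 54.0 CPM (5 counts). No KO library was among the 6.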

How the results depend on the processing

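None of the 10 genes was called in any of 60 fits (20 settings in each of 3 comparisons). The smallest adjusted p of any of them was 0.101, for Gdf15 in bleomycin WT against saline WT with no filter on low counts. Signs of single genes were less stable, and the causes of the changes below were not tested. Saline WT 2 limits every saline value under 32.4 CPM. In bleomycin WT against saline WT the number of genes called, 4 as reported, was 499 with DESeq2, 1 with RLE, 319 with limma-voom, 780 with no filter, 0 with the 2 groups alone, 2 with the replicate block and 81 without saline WT 2 and bleomycin WT 4. The median log2 fold change of the 10 genes, 0.33, was 0.11 with DESeq2, 0.14 with RLE, -0.27 with limma-voom and -0.41 without both libraries. Cdkn1a turned to -0.18 with DESeq2, -0.17 with RLE, -0.27 with limma-voom, -0.0042 with the 2 groups alone and -0.28 without both libraries, and Phlda3 to -0.28 with limma-voom and -0.81 without both. With each library left out in turn, the genes called ran from 1 (without saline WT 3) to 11 (without bleomycin WT 4), the median from -0.030 (without bleomycin WT 4) to 0.53 (without saline WT 3), Cdkn1a from -0.15 to 0.29 and Phlda3 from -0.46 to 1.32. In bleomycin KO against bleomycin WT 243 genes were called with no filter, against 0. With limma-voom, Mdm2 turned to 0.47, Bax to 0.084, Bbc3 to -0.12, Phlda3 to 0.49 and Gdf15 to 0.094. Without both libraries Mdm2 was 0.56, Bax 0.15, Bbc3 -0.068, Phlda3 0.51, Sesn2 -0.20 and Gdf15 0.10. Leaving out each library gave -0.13 to 0.20 for the median, -0.083 to 0.26 for Cdkn1a, -0.56 to 0.54 for Mdm2, -0.42 to 0.13 for Bax, -0.089 to 0.52 for Bbc3, -1.28 to 0.49 for Phlda3, -0.35 to 0.68 for Zmat3, -0.24 to 0.99 for Sesn2 and -1.21 to 0.086 for Gdf15. In bleomycin KO against saline WT, 3 genes were called as reported, 370 with DESeq2, 1 with RLE, 232 with limma-voom, 694 with no filter, 1 with the 2 groups alone, 1 with the replicate block and 121 without both libraries. The median of the 10 genes was -0.080 with DESeq2 and -0.20 without both. Cdkn1a turned to -0.074 with DESeq2, -0.063 with RLE and -0.18 without both, and Trp53inp1 to -0.087, -0.039 and -0.22 in the same settings and to -0.13 with limma-voom. Phlda3 turned to 0.21 with limma-voom and 0.044 with no filter. Leaving out each library gave 0 (without saline WT 3) to 18 (without bleomycin WT 4) genes called, a median of -0.10 to 0.42, and -0.080 to 0.36 for Cdkn1a, -0.20 to 0.34 for Phlda3 and -0.13 to 0.47 for Trp53inp1. The labels give the groups the same replicate numbers, but 0 of 12 same-numbered pairs had deviations correlated above 0.1 (-0.182 to 0.0528). A pair with different numbers, bleomycin WT 2 and bleomycin KO 1, reached 0.416. These few pairs, with saline WT 2 and bleomycin WT 4 among them, cannot show whether numbers mark a shared day or batch. The labels do not say what the numbers mean. With the replicate block Mdm2 was at 0.0059 in bleomycin KO against bleomycin WT and Phlda3 at 0.078 in bleomycin KO against saline WT.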
